A study of Mus musculus with 12 samples.

Results

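The genes described are the 7 that make, pack, retrieve and degrade serotonin: Tph1, Tph2, Ddc, Slc18a2, Slc6a4, Maoa and Maob. They were taken as every probe set of the array whose gene symbol was one of these names, which gave 7 genes of 18194 with a symbol of their own, and 9 probe sets of 45101, with 2 each for Ddc and Maoa and 1 for each other gene. Tryptophan hydroxylase adds a hydroxyl group to tryptophan in the first and slowest step, and Tph2 encodes the form of neurons while Tph1 encodes the form of the gut and the pineal gland. Ddc encodes aromatic L-amino acid decarboxylase, which makes serotonin from the product and also makes dopamine from L-dopa. The vesicular monoamine transporter VMAT2 (Slc18a2) loads serotonin, dopamine and noradrenaline into vesicles, the transporter SERT (Slc6a4) takes serotonin back up from outside the cell, and the monoamine oxidases A and B (Maoa and Maob) degrade monoamines on the outer mitochondrial membrane. In the hindbrain Tph2 and the transporter genes are switched on as serotonin precursors leave the ventricular zone and become neurons.

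The cells were taken from E12.5 mouse neural tube. All of them bore the ePet-EYFP transgene, which places yellow fluorescent protein (YFP) under an enhancer of Pet-1. A cut at the pontine flexure separated a rostral domain, bounded in front by the mesencephalic flexure, from a caudal domain that ended at the spinal cord, and each was sorted by fluorescence. The 4 populations were rostral YFP-positive cells (R+), caudal YFP-positive cells (C+), rostral YFP-negative cells (R-) and caudal YFP-negative cells (C-), with 3 arrays of 200000 cells each. Positive cells were thus chosen by transgene activity and not by serotonin, and negative cells are a mixture of all other cells of the domain. The labels call the replicates biological without naming litters, and p-values reflect only how far these samples spread, which may be technical. In sorted bulk RNA, fewer cells of a type and less RNA per cell cannot be told apart.

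Values are MAS5 signals in arbitrary units on a linear scale, with means ± SD (n = 3). Each difference is given ± SE as log2(signal + 10), where the added 10 understates the change of dim probe sets. A difference was called at an adjusted p under 0.05, from limma fitted to all 12 arrays and adjusted over 26061 probe sets by the Benjamini-Hochberg method. The median signal of the arrays lay between 93 and 121, so signals under 93 are in the dimmer part of every array. The 3 to 5 prime ratio of the beta-actin control, a measure of RNA integrity and amplification, was 3.24 ± 0.52 in R+, 5.79 ± 1.20 in C+, 3.52 ± 0.78 in R- and 5.75 ± 1.69 in C-, and so moved with the domain. That of the Gapdh control was 1.38 ± 0.28 in R+, 3.20 ± 1.52 in C+, 1.49 ± 0.57 in R- and 2.03 ± 0.48 in C-. It was highest in C+ and was not used as a covariate. Of 7 serotonin neuron markers measured, 6 were higher in R+ than in R- and 6 higher in C+ than in C-. The exceptions were Foxa2, lower in R+, and En1, not called between C+ and C-. Fev, listed as well, had no probe set under that symbol. Arrays with the same replicate number deviated together, and with that number as a block the count of all probe sets called was 3740 for R+ against R- (1999 without it), 4279 for C+ against C- (2136), 4327 for R+ against C+ (984) and 1770 for R- against C- (389).

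Promoter sequence of the members is shown because 8 of the 9 probe sets were higher in both positive populations. RefSeq promoters of GRCm38.p6, from 250 bases before to 50 bases after each start, were matched for 6 of the 7 genes, with 2 starts each for Ddc and Tph1, and Maob was not matched. Each was searched on both strands for AGATAA (bound by GATA factors), CACTTA (NKX2 factors), TAATTA (homeodomain factors), CCGGAA (ETS factors) and TATAAA (the TATA box), none of which overlapped another where found. Capitals mark the matches, and those that read on the opposite strand appear as the reverse complement. The 5 sequences below run 5′ to 3′ along the gene, for Tph2 at chr10:115184973-115185272 (minus strand), Ddc at its first start at chr11:11898095-11898394 (minus), Slc18a2 at chr19:59260628-59260927 (plus), Slc6a4 at chr11:76998347-76998646 (plus) and Maoa at chrX:16619448-16619747 (plus).
Tph2: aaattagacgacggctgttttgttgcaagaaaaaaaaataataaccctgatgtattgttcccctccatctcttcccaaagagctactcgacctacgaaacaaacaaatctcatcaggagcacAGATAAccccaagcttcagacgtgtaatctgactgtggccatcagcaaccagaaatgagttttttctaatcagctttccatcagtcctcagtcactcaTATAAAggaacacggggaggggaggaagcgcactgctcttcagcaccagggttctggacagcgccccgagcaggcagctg
Ddc: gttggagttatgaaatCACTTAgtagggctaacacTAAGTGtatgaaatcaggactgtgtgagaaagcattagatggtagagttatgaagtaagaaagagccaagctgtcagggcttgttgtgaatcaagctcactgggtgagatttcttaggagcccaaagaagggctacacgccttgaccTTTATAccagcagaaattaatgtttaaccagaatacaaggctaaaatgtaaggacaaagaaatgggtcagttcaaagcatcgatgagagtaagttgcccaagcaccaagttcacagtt
Slc18a2: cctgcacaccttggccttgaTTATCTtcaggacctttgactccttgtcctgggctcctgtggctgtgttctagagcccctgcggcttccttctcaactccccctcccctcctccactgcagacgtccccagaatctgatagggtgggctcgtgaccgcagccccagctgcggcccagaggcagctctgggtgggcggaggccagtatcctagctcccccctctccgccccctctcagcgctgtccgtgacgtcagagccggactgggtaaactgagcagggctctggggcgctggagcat
Slc6a4: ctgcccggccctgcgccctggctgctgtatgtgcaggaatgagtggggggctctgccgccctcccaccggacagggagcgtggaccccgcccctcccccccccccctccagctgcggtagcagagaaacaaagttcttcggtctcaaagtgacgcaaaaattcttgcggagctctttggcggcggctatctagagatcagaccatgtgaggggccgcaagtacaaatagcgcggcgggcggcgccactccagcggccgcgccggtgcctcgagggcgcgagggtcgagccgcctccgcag
Maoa: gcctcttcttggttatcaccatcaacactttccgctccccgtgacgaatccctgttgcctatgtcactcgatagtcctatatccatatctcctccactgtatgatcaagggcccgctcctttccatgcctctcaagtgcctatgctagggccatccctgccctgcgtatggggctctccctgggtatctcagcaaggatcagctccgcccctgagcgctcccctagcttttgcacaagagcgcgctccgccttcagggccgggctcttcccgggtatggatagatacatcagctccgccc

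AGATAA lay 128 bases before the start of Tph2 and, on the opposite strand, 230 bases before the start of Slc18a2, and 11.2% of 32851 RefSeq promoters of this length hold it. CACTTA lay 234 and 215 bases before the first start of Ddc, once on each strand, against 9.2% of all promoters with a match. TATAAA lay 30 bases before the start of Tph2 and 68 bases before that of Ddc on the opposite strand (13.6% of all promoters). All shares given here count a match at any position and on either strand. The windows of Slc6a4, Maoa, the second start of Ddc and the first start of Tph1 had no match to any of the 5 motifs. CCGGAA was in none of the 8 windows searched, where 14.9% of all promoters hold it. Such absence says only that these letters are not in the windows. For Tph1, TAATTA lay 234 bases before the second start (5.29% of all promoters). Base composition differed among the printed windows, from 41.3% G and C for Ddc to 67.7% for Slc6a4.

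Serotonin genes stood out in both positive populations. Of the 9 member probe sets 8 were higher and 0 lower in R+ than in R-, where 2.79% of all probe sets tested were higher and 4.88% lower. The same 8 were higher and 0 lower in C+ than in C-, against 3.56% of all probe sets higher and 4.64% lower. The remaining one was Tph1. The median member difference was 3.39 between R+ and R- and 4.72 between C+ and C-, beside medians over all probe sets of 0.02 and -0.02. The 3 arrays of the positive group lay above the 3 of the negative group for these 8 in each domain, as did 10.8% of all probe sets for R+ and 10.4% for C+.

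**Figure D1:**
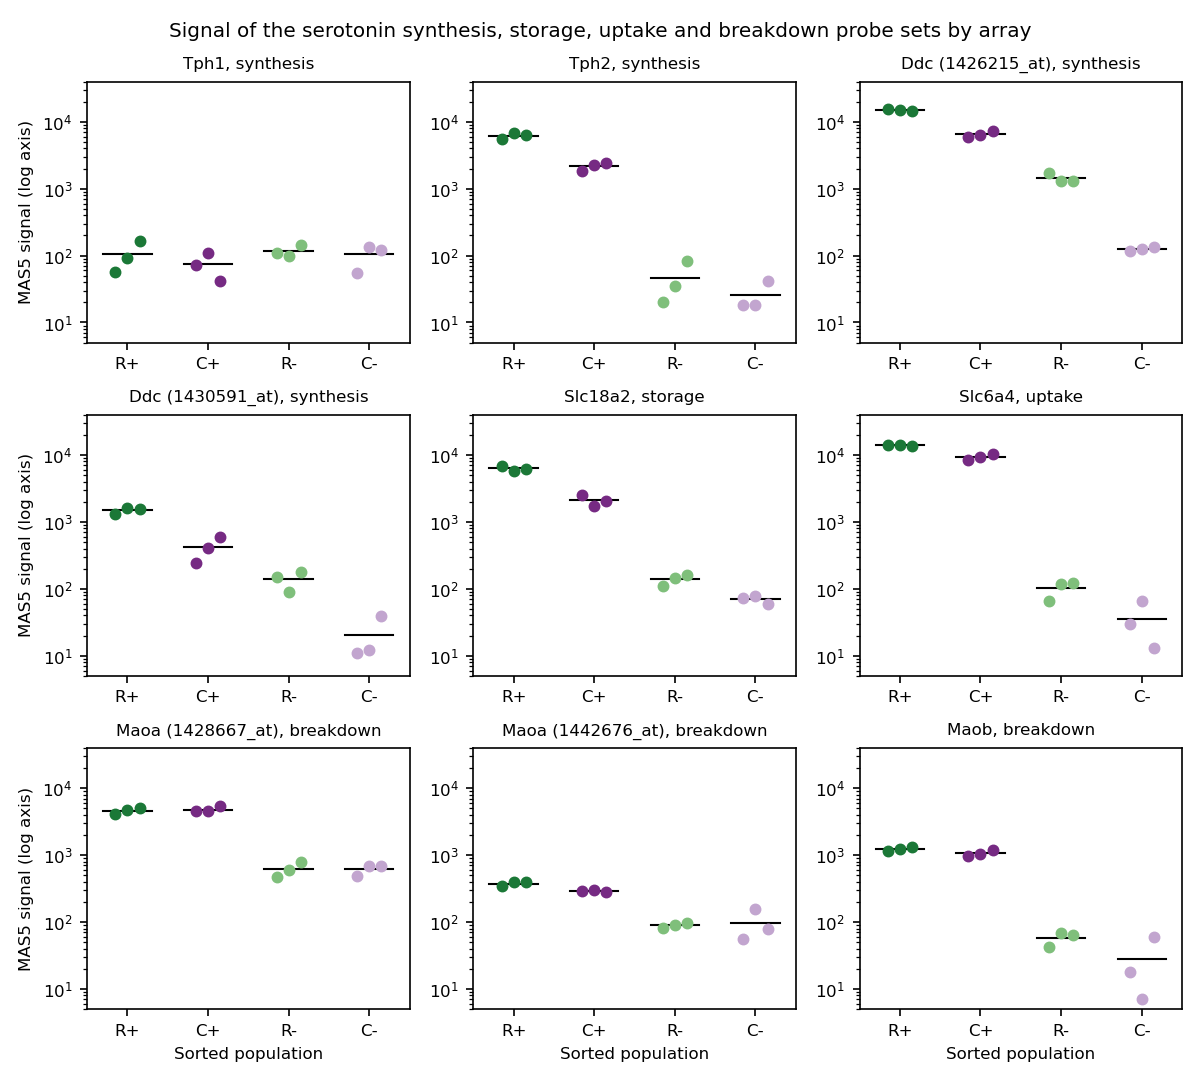
MAS5 signal (log axis) of each member probe set on each of the 12 arrays, grouped by sorted population, with points for arrays in replicate order and bars for group means. All probe sets except that of Tph1 lie higher in R+ and C+ than in R- and C-, and those of Tph2, Ddc and Slc18a2 lie higher in R+ than in C+.

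Tph2, which encodes the neuronal tryptophan hydroxylase (1435314_at), had signals of 5578, 6784 and 6270 in R+, 1869, 2260 and 2449 in C+, 20, 35 and 83 in R-, and 18, 18 and 41 in C-. The groups of positive and negative cells lay far apart, and R+ lay wholly above C+. Negative cells held 0.741% of the positive signal in the rostral domain and 1.17% in the caudal domain. The difference was 6.95 ± 0.35 between R+ and R- (adjusted p = 4.62e-08) and 6.0003 ± 0.35 between C+ and C- (adjusted p = 1.12e-07). The R- and C- arrays overlapped, with a difference of 0.55 ± 0.35 (adjusted p = 0.583).

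Tph1 (1419524_at), which encodes the peripheral form, had 57, 93 and 167 in R+, 73, 108 and 42 in C+, 108, 98 and 146 in R-, and 55, 136 and 121 in C-. The 4 groups overlapped, and the probe set passed the filter for low signal by exceeding 107 on 6 arrays. Its difference was -0.23 ± 0.47 between R+ and R- (adjusted p = 0.891) and -0.43 ± 0.47 between C+ and C- (adjusted p = 0.705), with 95% intervals of -1.25 to 0.78 and -1.44 to 0.58. Without R+ 1 the rostral value was 0.10, so its sign rested on 1 array. Markers of other cells known for Tph1, mast cells, were mostly dim. Of 7, 6 failed the filter (Cpa3, Cma1, Mcpt4, Fcer1a, Hdc and Tpsb2), with group means of 9.67 to 77.7, and none was at 0. The summed signal of the 7 was 453 to 509 in R+, 687 to 899 in C+, 737 to 1261 in R- and 1962 to 2483 in C-. Kit, the one that passed, had means of 229.7 in R+, 586 in C+, 801 in R- and 1957 in C-. Most of the sum in C+, R- and C- was Kit.

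Ddc was measured by 2 probe sets, which differ in brightness and are described apart. In RefSeq 2 other genes are annotated within the span of Ddc, and the position of the probes was not used here. The brighter, 1426215_at, had 15667, 15207 and 14259 in R+, 5848, 6286 and 7292 in C+, 1739, 1321 and 1315 in R-, and 117, 125 and 135 in C-. No 2 groups overlapped, and the order was R+, C+, R-, C-. The difference was 3.37 ± 0.14 between R+ and R- (adjusted p = 1.08e-08) and 5.58 ± 0.14 between C+ and C- (adjusted p = 4.86e-11). The dimmer, 1430591_at, had 1326, 1610 and 1572 in R+, 244, 404 and 598 in C+, 148, 90 and 179 in R-, and 11, 12 and 39 in C-. Its groups followed the same order without overlap, with a difference of 3.39 ± 0.38 between R+ and R- (adjusted p = 6.67e-05) and 3.82 ± 0.38 between C+ and C- (adjusted p = 1.78e-05).

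Slc18a2, the gene of the vesicular transporter (1437079_at), had 6919, 5810 and 6192 in R+, 2491, 1752 and 2062 in C+, 112, 144 and 159 in R-, and 72, 77 and 60 in C-. Again no groups overlapped. The positive excess was 5.42 ± 0.18 in the rostral domain (adjusted p = 7.61e-10) and 4.72 ± 0.18 in the caudal domain (adjusted p = 2.96e-09), and negative cells held 2.19% and 3.31% of the positive signal. Slc6a4, the gene of the uptake transporter (1417150_at), had 14198, 14012 and 13608 in R+, 8341, 9247 and 10435 in C+, 66, 118 and 124 in R-, and 30, 65 and 13 in C-. The positive excess of Slc6a4 was 6.996 ± 0.33 in the rostral domain (adjusted p = 3.15e-08) and 7.83 ± 0.33 in the caudal domain (adjusted p = 6.07e-09). Negative cells held 0.737% of the positive Slc6a4 signal in the rostral domain and 0.385% in the caudal domain.

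**Figure D2:**
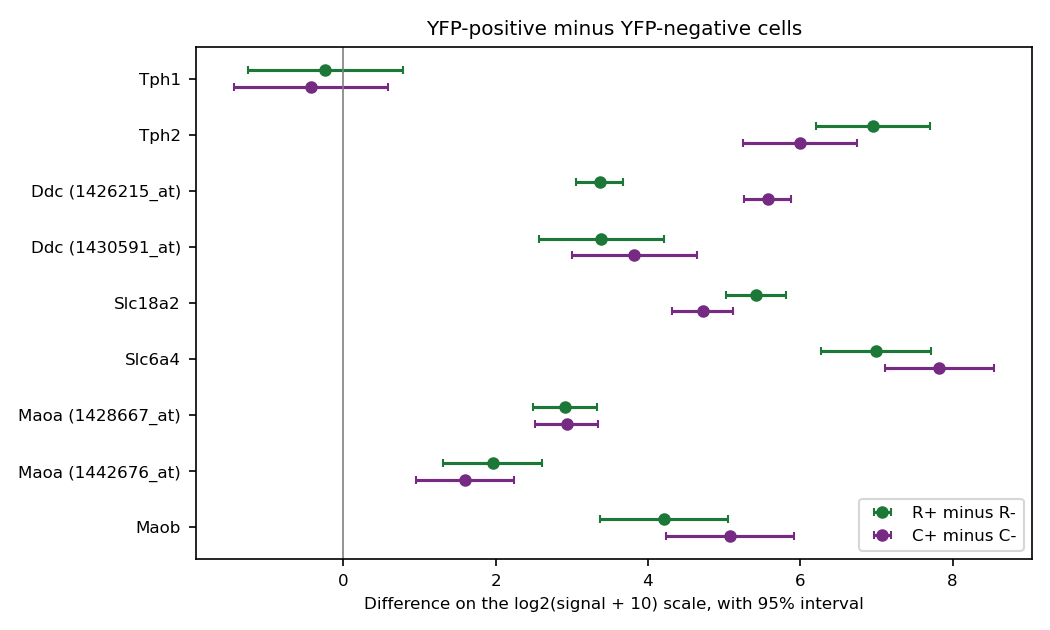
Difference of positive minus negative cells for each member probe set on the log2(signal + 10) scale, in the rostral (R+ minus R-) and caudal (C+ minus C-) domain, with 95% intervals from limma. The Tph1 intervals include 0, and the intervals of the 2 domains lie apart for Ddc 1426215_at, at 3.37 and 5.58.

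The oxidase genes were enriched as well, and none of their differences between R+ and C+ passed the test. Maoa, which encodes the form that prefers serotonin, had 4090, 4724 and 5100 in R+, 4535, 4519 and 5336 in C+, 467, 607 and 785 in R-, and 496, 682 and 697 in C- with the probe set 1428667_at. Positive cells lay above negative cells by 2.91 ± 0.19 rostrally (adjusted p = 6.11e-07) and 2.93 ± 0.19 caudally (adjusted p = 4.86e-07). Negative cells kept 13.4% and 13.0% of the positive signal, more than for any other member but the second Maoa probe set and Tph1. That second probe set, 1442676_at, was dimmer, at 346, 390 and 394 in R+, 294, 297 and 286 in C+, 81, 91 and 96 in R-, and 56, 158 and 80 in C-. It was higher by 1.96 ± 0.30 in R+ (adjusted p = 0.000848) and 1.60 ± 0.30 in C+ (adjusted p = 0.00376). Without replicate 3 in all groups these calls were lost, at an adjusted p of 0.0575 and 0.149.

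Maob (1434354_at), which encodes the form found in adult serotonin neurons and astrocytes, had 1155, 1218 and 1328 in R+, 985, 1057 and 1193 in C+, 42, 68 and 64 in R-, and 18, 7 and 60 in C-. Positive arrays were far above negative ones, and R+ overlapped C+. The difference was 4.21 ± 0.39 rostrally (adjusted p = 1.14e-05) and 5.08 ± 0.39 caudally (adjusted p = 1.79e-06). Maoa and Maob are neighbours on chromosome X, with 0 genes annotated between them in RefSeq. The Maob value minus the Maoa value (1428667_at) was taken within each array. It was -2.02 ± 0.15 over the 6 positive arrays and -3.74 ± 0.88 over the 6 negative arrays (mean ± SD). The positive array was higher in 6 of 6 pairs of one domain and replicate number, by 1.72 on average and by 1.04 to 3.26 (exact two-sided sign-flip permutation test, p = 0.0312, the smallest that 64 sign patterns can give). The test takes the 6 pairs as independent. Rostral and caudal pairs of one replicate number may not be, since arrays with the same number deviated together, and the p-value may then be too small. The negative Maob signals, 7 to 68, lay below the median of every array, so the size depends on the added constant, and an addition of 50 in place of 10 gave 0.898.

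Between the positive populations, 4 of the 9 member probe sets were higher in R+ than in C+ and 0 were lower, where 1.38% of all probe sets were higher and 2.39% lower. They belonged to Tph2, Ddc (both) and Slc18a2. The arrays did not overlap for 6 of the 9, all higher in R+, beside 9.28% of all probe sets. The median member difference was 0.58, against -0.01 over all probe sets.

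Tph2 averaged 6211 ± 605 in R+ and 2193 ± 296 in C+, a ratio of 2.83. The difference was 1.50 ± 0.35 (95% interval 0.75 to 2.25, adjusted p = 0.0298). This call was lost without R+ 1 (adjusted p = 0.0744), R+ 2 (0.0868), R+ 3 (0.113), C+ 2 (0.102) or C+ 3 (0.0811), and without all replicate 2 (0.287) or replicate 3 arrays (0.0786). Over all fits that left out arrays the difference was 1.39 to 1.59. With the replicate block it was 1.50 ± 0.24 (adjusted p = 0.00107). With only the 6 positive arrays in the fit, which leaves out the spread of the dim negative arrays, the adjusted p was 0.000963. The Tph2 groups themselves lay apart on every array, with the lowest R+ signal at 5578 and the highest C+ signal at 2449.

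Ddc 1426215_at averaged 15044 ± 718 in R+ and 6475 ± 740 in C+, a ratio of 2.32 and a difference of 1.22 ± 0.14 (adjusted p = 0.000239). It was lost only without all replicate 2 arrays (0.0563) among the fits that left out arrays. The second Ddc probe set averaged 1503 ± 154 in R+ and 415 ± 177 in C+, with a difference of 1.91 ± 0.38 (adjusted p = 0.0134) that was lost without R+ 3 (0.0678), C+ 2 (0.0562), replicate 2 (0.197) or replicate 3 (0.0569). Slc18a2 averaged 6307 ± 563 in R+ and 2102 ± 371 in C+, a ratio of 3.00. The Slc18a2 difference of 1.59 ± 0.18 (adjusted p = 0.000206) passed in every fit that left out arrays.

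Slc6a4 averaged 13939 ± 302 in R+ and 9341 ± 1050.2 in C+, a ratio of 1.49. No C+ array reached an R+ array, but the difference of 0.58 ± 0.33 did not pass (95% interval -0.13 to 1.30, adjusted p = 0.372), while the fit to the 6 positive arrays alone gave an adjusted p of 0.0434. Maoa 1428667_at averaged 4638 ± 510 in R+ and 4797 ± 467 in C+, with overlapping arrays and a difference of -0.05 ± 0.19 (95% interval -0.47 to 0.37, adjusted p = 0.927). Its second probe set averaged 377 ± 26.6 in R+ and 292 ± 5.69 in C+, and its difference of 0.35 ± 0.30 did not pass (adjusted p = 0.581), although the arrays did not overlap. Maob averaged 1234 ± 87.6 in R+ and 1078 ± 106 in C+ (0.19 ± 0.39, 95% interval -0.65 to 1.04, adjusted p = 0.845). Tph1 averaged 106 ± 56.1 in R+ and 74.3 ± 33.0 in C+ (0.42 ± 0.47, adjusted p = 0.691).

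Within each positive array, the Tph2 value minus the Slc6a4 value was -1.17 ± 0.16 in R+ and -2.09 ± 0.06 in C+ (mean ± SD of 3 arrays). The 3 R+ arrays all lay above the 3 C+ arrays, by 0.92 on average, with p = 0.1 in an exact two-sided permutation test, the smallest that 20 splits of 3 against 3 allow.

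**Figure D3:**
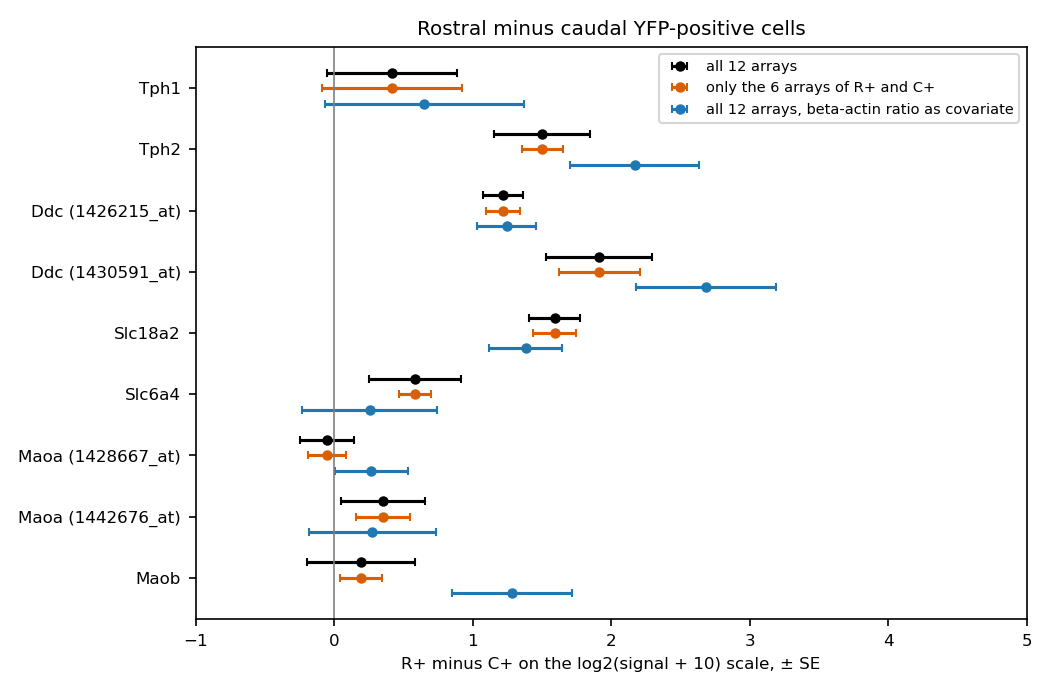
Difference of R+ minus C+ for each member probe set on the log2(signal + 10) scale, ± SE, from the fit to all 12 arrays, from a fit to the 6 positive arrays alone and from all 12 arrays with the beta-actin ratio as a covariate. Tph2, both Ddc probe sets and Slc18a2 lie at 1.22 to 1.91 in the first fit and at 1.25 to 2.69 with the covariate, where Maob lies at 1.29.

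Because the beta-actin ratio was lower in R+ than in C+, the differences were also fitted with it as a covariate. Tph2 then differed by 2.17 ± 0.46 (adjusted p = 0.0481), Ddc by 1.25 ± 0.21 (0.0109) and 2.69 ± 0.50 (0.0213), and Slc18a2 by 1.38 ± 0.27 (0.0243). The ratio was 2.64 to 3.60 in R+ and 4.52 to 6.92 in C+, without overlap. Among negative cells it was 2.88 to 4.39 in R- and 4.66 to 7.69 in C-. The fit therefore cannot tell the ratio from the domain, and its slope came only from the scatter within groups. With the covariate and the replicate block together 1 member was called, Ddc 1426215_at (1.34 ± 0.26, adjusted p = 0.0409), while Tph2 (1.40 ± 0.50) had an adjusted p of 0.344, Slc18a2 (1.24 ± 0.34) of 0.183 and Ddc 1430591_at (2.20 ± 0.57) of 0.152. In the same fit Slc6a4 was at -0.61 ± 0.45 (0.702), the opposite sign to that without it. Markers of inhibitory neurons also moved with the comparison: 3 of 5 measured were lower in R+, among them Gad1, the gene of a GABA-synthesis enzyme, with 184 ± 35.6 in R+ and 2125 ± 265 in C+, beside 2373 ± 90.7 in C-. Slc32a1 (304 ± 73.1 in R+ and 619.7 ± 139 in C+) and Slc6a5 (33.3 ± 16.5 and 165 ± 58.5) were lower in R+ too, with means of 3394 and 1665 in C-, and Gad2 (adjusted p = 0.531) and Lhx1 (0.877) were not called. The summed signal of the 5 was 1013 to 1203 in R+ and 3229 to 3828 in C+, of which Gad1 gave 147 to 218 and 1836 to 2357. Between C+ and C- Gad1 was not called (adjusted p = 0.721), while the other 4 were lower in C+. The part of inhibitory neurons in the member differences was not tested. The serotonin markers Gata2 (6251 ± 431 in R+ and 8130 ± 127 in C+, adjusted p = 0.201), Gata3 (8462 ± 1288 and 10138 ± 2011, 0.594) and Lmx1b (5413 ± 1023 and 5890.0 ± 1289, 0.88), which encode transcription factors of these neurons, had lower means in R+ without passing the test, as did Htr1a (508 ± 19.9 and 850.0 ± 62.7, 0.11) and Foxa2 (445 ± 56.7 and 515 ± 109, 0.823). En1, a transcription factor of the rostral hindbrain and midbrain, was higher in R+ (1457 ± 122 and 103 ± 47.6, adjusted p = 5.49e-06), and Nkx2-2 had a higher mean there (2592 ± 199.6 and 2203 ± 540.1, 0.484). With the replicate block Gata2 (0.0297) and Htr1a (0.0394) were lower in R+.

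Among negative cells, 3 of the 9 member probe sets were higher in R- than in C-, and 0 were lower, where 0.533% of all probe sets were higher and 0.959% lower. The replicate block added Slc6a4 and made it 4, where with the block 3.17% of all probe sets were higher and 3.63% lower. The arrays did not overlap for 4 of the 9, beside 6.95% of all probe sets. For Slc6a4 this rested on a lowest R- signal of 66 and a highest C- signal of 65. Ddc led the difference. Its brighter probe set averaged 1458 ± 243 in R- and 126 ± 9.02 in C-, a ratio of 11.6 and a difference of 3.43 ± 0.14 (adjusted p = 6.07e-08), which passed in every fit that left out arrays. The dimmer one averaged 139 ± 45.2 in R- and 20.7 ± 15.9 in C-, with a difference of 2.35 ± 0.38 (adjusted p = 0.00526) that was lost without replicate 2 (0.157) and in a fit to the 6 negative arrays alone (0.158).

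Slc18a2 averaged 138 ± 24.0 in R- and 69.7 ± 8.74 in C-, a ratio of 1.99 with arrays that did not overlap. Its difference of 0.89 ± 0.18 (adjusted p = 0.0274, 0.00667 with the block) was lost in 13 of 28 alternative fits: without R+ 3 (0.055), R- 2 (0.0796), R- 3 (0.154), C- 1 (0.0669), C- 2 (0.0513) or C- 3 (0.128), without replicate 2 (0.299) or 3 (0.872), and in 5 with other settings, among them the 6 negative arrays alone (0.425). Slc6a4 averaged 103 ± 31.9 in R- and 36 ± 26.5 in C- (1.41 ± 0.33, adjusted p = 0.0572). It passed in 8 of 28 alternative fits, among them with the block (0.0094) or without R- 1 (0.0433), C- 2 (0.00451) or replicate 1 (0.0458). Without replicate 3 the Slc6a4 difference was 0.85 (0.935), and with the block and the beta-actin covariate 0.42 (0.804). The fit to the 6 negative arrays alone gave Slc6a4 an adjusted p of 0.461. Its negative signals were dim, and the probe set passed the filter chiefly through the positive arrays. Maob averaged 58 ± 14.0 in R- and 28.3 ± 28.0 in C- (1.06 ± 0.39, adjusted p = 0.286). It passed in 3 of 28 alternative fits, among them without C- 3 (1.62, 0.0144) and with the beta-actin covariate (1.96, 0.0403). Without C- 2 the Maob difference was 0.60 (0.628), and without replicate 2 it was 0.49 (0.816). With the 6 negative arrays alone Maob had an adjusted p of 0.702, and it passed the filter only through the positive arrays. Maoa 1428667_at was nearly level, at 619.7 ± 159 in R- and 625 ± 112 in C-.

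Ddc and Slc18a2 also serve dopamine and noradrenaline neurons, whose markers were read beside them. Of 7 measured, 1 was higher in R- than in C-: Nr4a2, a transcription factor of midbrain dopamine neurons, with 3985 ± 1191 in R- and 1267 ± 125 in C- (1.61 ± 0.19, adjusted p = 0.000311). Th, the rate-limiting enzyme of dopamine synthesis, had 654 ± 200 in R- and 259 ± 72.2 in C- (1.30 ± 0.38, adjusted p = 0.142). Pitx3, Slc6a3, Slc6a2, Dbh and Phox2a had means of 90.0 to 196 in R- and 73 to 196 in C- and none was called. The summed signal of the 7 was 4470 to 6930 in R- and 2167 to 2371 in C-, and none was at 0. Most of this sum was Nr4a2, at 3055 to 5327 in R- and 1154 to 1401 in C-. Of the serotonin markers 4 of 7 were higher in R- in the same comparison and 0 lower. They were Gata2, En1, Nkx2-2 (373 ± 37.1 in R- and 113 ± 10.1 in C-) and Foxa2 (1335 ± 158 and 95.3 ± 55.7). Foxa2 was lower in R+ than in R-, and En1 was not called between C+ and C- (103 ± 47.6 and 108 ± 31.6). Neither thus followed the positive cells in both domains. Gata3 (adjusted p = 0.0732), Lmx1b (0.42) and Htr1a (0.938) were not called, and Htr1a was at 105 ± 35.1 in R- and 109 ± 23.1 in C-. With the block 5 of the 7 were higher and 1 lower, Lmx1b (555 ± 139 and 915 ± 453, 0.0172). The summed signal of the 7 was 5142 to 5549 in R- and 2308 to 3506 in C-. The part of either cell type in the Ddc difference was not tested.

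**Figure D4:**
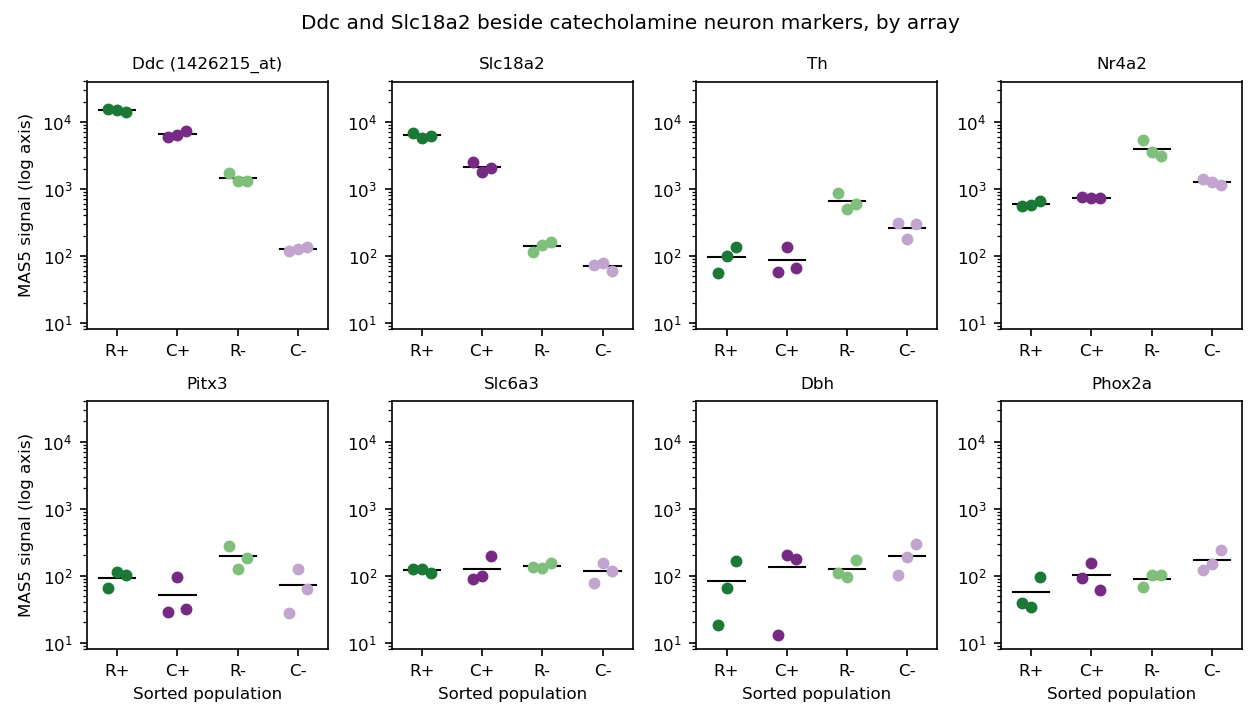
MAS5 signal (log axis) by array for Ddc (1426215_at), Slc18a2 and 6 markers of dopamine and noradrenaline neurons, with bars for group means. Ddc, Th and Nr4a2 have higher means in R- than in C- (1458 and 126, 654 and 259, 3985 and 1267), whereas Th and Nr4a2 are lower in R+ and C+ than in R- and C-.

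The enrichment of positive over negative cells was compared between the domains as the difference R+ minus R- less the difference C+ minus C-. Of the 9 member probe sets 0 were higher and 1 lower, where 0.192% of all probe sets were higher and 0.33% lower. It was Ddc 1426215_at, less enriched in the rostral domain (-2.21 ± 0.20, adjusted p = 0.000113). The call was lost without all replicate 2 (0.0684) or replicate 3 arrays (0.065). Rostral negative cells held 9.69% of the rostral positive signal, and caudal negative cells 1.94% of the caudal one. The second Ddc probe set gave -0.43 ± 0.54 (adjusted p = 1) and shares of 9.25% and 4.98%, so that the 2 did not give the same size. Tph2 (0.95 ± 0.49, adjusted p = 0.975), Slc18a2 (0.70 ± 0.26, 0.621), Slc6a4 (-0.83 ± 0.47, 1) and Maob (-0.86 ± 0.55, 1) did not pass.

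The other genes of serotonin and monoamine handling, in 8 lists of 51 genes, divided into higher, lower and uncalled genes. Of 43 genes with a probe set 33 passed the filter, and of these 6 were higher and 3 lower in R+ than in R-, beside 2.79% and 4.88% of all probe sets. In C+ against C- 4 were higher and 1 lower, beside 3.56% and 4.64%, and with the replicate block 7 were higher and 1 lower, beside 7.59% and 8.83%. Most of the higher genes served tetrahydrobiopterin, the cofactor that tryptophan hydroxylase needs: 4 of 7 measured were higher in R+ and 3 of 7 in C+, 4 with the block. Gch1, the first enzyme of its synthesis, had 4249.7 ± 713 in R+, 2382 ± 630 in C+, 146 ± 33.0 in R- and 73.7 ± 62.3 in C-, and was higher by 4.77 ± 0.46 in R+ (adjusted p = 1.71e-05) and 5.15 ± 0.46 in C+ (7.29e-06). Gchfr, which encodes the protein that regulates that enzyme, had 19533 ± 506 in R+, 10774 ± 240.03 in C+, 92.7 ± 50.1 in R- and 64.3 ± 24.7 in C-, with differences of 7.73 ± 0.35 (1.99e-08) and 7.24 ± 0.35 (1.85e-08). The recycling enzymes Pcbd1 (0.88 ± 0.16, 0.0029, and 1.41 ± 0.16, 5.36e-05) and Qdpr (1.13 ± 0.22, 0.00454, and 0.73 ± 0.22, 0.0558, or 0.00102 with the block) differed less. A second Qdpr probe set was higher in both without the block (0.91 ± 0.15, 0.00146, and 0.82 ± 0.15, 0.00299).

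Transporters of tryptophan and other large amino acids divided. Slc7a8 was higher by 1.99 ± 0.32 in R+ than in R- (adjusted p = 0.00132) and by 1.62 ± 0.32 in C+ than in C- (0.00563), with 401 ± 35.5 in R+, 260.0 ± 8.54 in C+, 99 ± 40.3 in R- and 81.7 ± 33.3 in C-. Slc7a5 was lower in R+ than in R- (-0.81 ± 0.23, 0.0437) and lower in R+ than in C+ (-0.97 ± 0.23, 0.0295), with 401 ± 118 in R+ and 796 ± 216 in C+. By these representative probe sets 0 of the 33 genes were higher and 1 lower in R+ than in C+, beside 1.38% and 2.39% of all probe sets, and the block added Pts, Qdpr, Slc3a2 and Aldh2, all higher in R+, where it called 8.19% of all probe sets higher and 8.41% lower. Aldh2, an aldehyde dehydrogenase, has 3 further probe sets, and 2 of them were higher in R+ than in C+ without the block (1.59 ± 0.35, adjusted p = 0.0223, and 1.54 ± 0.35, 0.0273). Of 5 other monoamine and cation transporters Slc29a4, a low-affinity monoamine transporter, was higher in R+ (0.68 ± 0.19, 0.0464) and, with the block, in C+ (0.60 ± 0.19, 0.0807 without and 0.0143 with it), while its second probe set was not called.

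Genes for the steps after or beside monoamine oxidase gave 0 calls of 5 in R+ and 0 of 5 in C+, and with the block 1 in C+ (Aldh3a2, 0.64 ± 0.22, adjusted p = 0.0449). Of 4 genes listed for vitamin B6, the source of the cofactor of Ddc, Aldh7a1 was lower in R+ (-0.63 ± 0.18, 0.0496). Pdxk, which makes the active form of the vitamin, was not called in R+ (0.25 ± 0.16, 0.487), and none of the 4 was called in C+. Neither of the 2 measured genes of other tryptophan use nor the melatonin gene Aanat was called in either domain. Th was the 1 gene called of 3 for the other aromatic monoamines, and it was lower in both, by -2.68 ± 0.38 in R+ (0.000448) and -1.53 ± 0.38 in C+ (0.0221). Between R- and C-, Pcbd1 was higher in R- (0.76 ± 0.16, 0.0271) and, with the block, Slc43a2 was lower. A second probe set of Gch1 was also higher in R- (1.19 ± 0.25, 0.0283), whereas its representative one was not called (1.22 ± 0.46, 0.301).

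**Figure D5:**
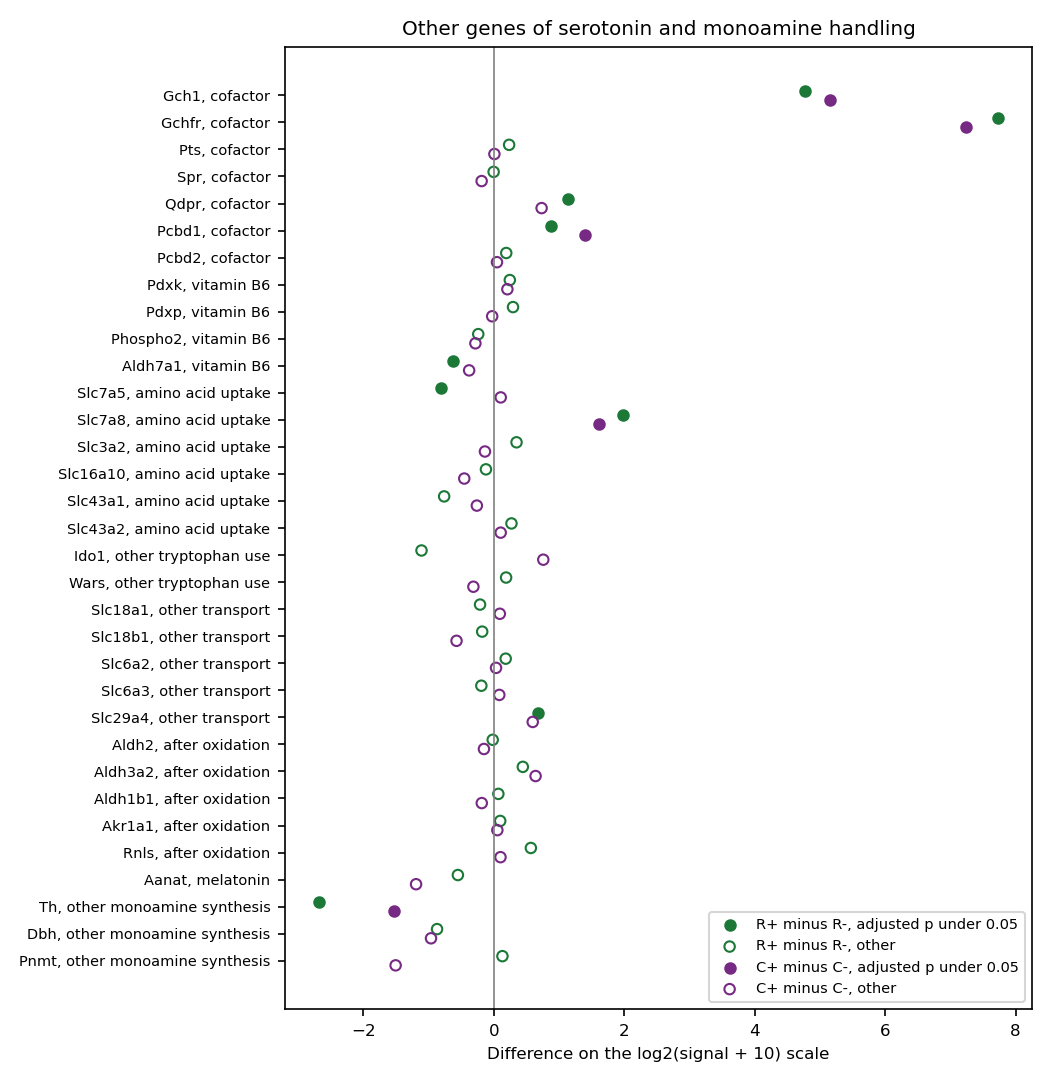
Difference of positive minus negative cells on the log2(signal + 10) scale for 33 other genes of serotonin and monoamine handling, rostral (R+ minus R-) and caudal (C+ minus C-), with filled points where the adjusted p was under 0.05. Gch1 and Gchfr lie at 4.77 to 7.73 in both domains, and Th lies at -2.68 and -1.53.

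The genes whose pattern was most like that of each member were found as those with the smallest root mean square difference from it over the 12 arrays, each gene first set to its own mean, among 12844 other genes. For Tph2 they were Gchfr (0.65 on the log2 scale), Cryba2 (0.68) and Slc18a2 (0.83). For Slc6a4 they were Gchfr (0.71), Tph2 (0.87) and Cryba2 (0.99), and for Slc18a2 Scg2 (0.54), Gch1 (0.60) and Cryba2 (0.61). Ddc had less close neighbours, Nkx2-2 (0.91), Slc18a2 (0.99) and Gch1 (1.02). Maob was closest to AW551984 (0.49), Scg2 (0.53) and Slc18a2 (0.75), and not to Maoa, whose nearest were Usp27x (0.24), Pde2a (0.25) and C530044C16Rik (0.27). Such distances describe these 12 arrays, which the members share, and small ones are easier to reach for genes that vary less, such as Tph1 (Foxl2, 0.23).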

How the data were processed

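RNA of 12 sorted-cell samples was hybridized to Affymetrix Mouse 430 2.0 arrays after one round of amplification, per the labels' protocols. The authors deposited one linear-scale intensity per probe set and array, a signal computed with MAS5 per the submitters' processing notes. Which MAS5 version and settings were used is not stated in those notes. In the deposited table the mean without the lowest and highest 2% was 500 on every array, so that arrays share one scale. Detection calls were not used here. The number of arrays limits the precision.

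Groups came from the labels. Of 45101 probe sets 64 controls were left out, and 26061 whose signal exceeded 107 (the median of the whole table) on 3 or more arrays were tested. Values were taken as log2(signal + 10) and fitted with limma 3.58.1 in R 4.3.3, with one mean per group over 12 arrays, eBayes with a trend, 5 two-sided contrasts, and Benjamini-Hochberg adjustment over all tested probe sets at 0.05. The fit was tested on simulated data. Single within-array values had exact permutation tests. Every probe set of the members is named, as is every called gene of the 8 pathway lists. The members and lists were chosen with earlier results of these data known. Pathway and marker genes were represented by their probe set with the highest mean.

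Pairing was checked on values less their group mean: the 18 pairs of arrays that share a number correlated at 0.169 to 0.597, all over 0.1, and 36 other pairs at -0.468 to 0.318, so the number was also fitted as a block. Alternatives changed the offset, filter, scaling, block, trend, array weights, beta-actin covariate and probe set choice, or left out arrays. Promoters and gene neighbours came from RefSeq.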

Additional observations from a re-analysis of the deposited data

Results flagged for a closer look

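The enrichment of positive over negative cells differed between the domains for Ddc 1426215_at, at -2.21 (R+ minus R- less C+ minus C-), by the test of the difference itself (limma, adjusted p = 0.000113). The second Ddc probe set gave -0.43 (adjusted p = 1), and the call was lost without all replicate 2 (0.0684) or replicate 3 arrays (0.065).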

How the results depend on the processing

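Alternatives numbered 28 for most results, and 2 of them, the block with the beta-actin covariate and the fit to the 6 arrays compared, were chosen after seeing the data. The 8 member probe sets other than Tph1 stayed higher in both positive populations in all fits run, and each kept its call except Maoa 1442676_at without replicate 3. Over the fits that left out arrays, member calls were 7 to 8 for R+ against R- and C+ against C-, 1 to 4 for R+ against C+ (fewest without replicate 2), 1 to 4 for R- against C- (fewest without replicate 2) and 0 to 1 for the difference of differences.

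All probe sets called numbered 1999 in R+ against R-, and 3740 with the replicate block, 3509 with array weights, 3567 with block and beta-actin covariate, and 651 (without replicate 2) to 2229 over the left-out arrays. In C+ against C- 2136 became 4279, 4915 and 4226 in those settings and 670 (without replicate 3) to 2491. In R+ against C+ 984 became 4327, 5806 and 158 in those, 535 scaled to one median, 639 without the trend, 227 with the covariate, 523 with 6 arrays, and 130 (without replicate 3) to 2624 (without replicate 1). In R- against C- 389 became 1770, 1179 and 150, 191 with the covariate, and 75 (without replicate 2) to 472. The difference of differences had 136, and 419, 469 and 366, 81 without the trend, and 13 (without replicate 2 or 3) to 203. Scaled to one median, 48.1% of calls in R- against C- were higher, against 35.7%, 26.7% against 36.8% in the difference of differences, and 52% against 43.4% in C+ against C-, where higher calls then outnumbered lower ones. The cause was not tested.

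Member calls numbered 1 for R+ against C+ with block and covariate, and 1 for R- against C- with 6 arrays. Tph2 in R+ against C+ also lost its call with an offset of 1 (0.0665) and without the trend (0.0679). Signs reversed for these uncalled values: in R+ against C+, Tph1 (-0.43), Slc6a4 (-0.61) and Maoa 1442676_at (-0.49) with block and covariate, and Maoa 1428667_at with array weights (0.045) and the covariate (0.27); and Ddc 1430591_at in the difference of differences with an offset of 50 (0.39). Without arrays, Tph1 ran from -0.60 to 0.10 in R+ against R-, -0.82 to 0.023 in C+ against C- and -0.25 to 0.79 in R+ against C+, and Maoa 1428667_at from -0.12 to 0.038 in R+ against C+. Maob minus Maoa ran from 1.42 to 1.92, at p of 0.0625 to 0.125, since fewer pairs cannot reach 0.05, and from 0.898 (offset of 50) to 2.29 (mean of all probe sets of a gene) over other settings. Ddc 1430591_at in R- against C- was 1.41 with an offset of 50. The block added the Slc6a4 call in R- against C- (0.0094) and changed no other member call. Dim signals limit the values of negative cells.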

Other observations

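Other cell types differed between the sorted populations. Red blood cell markers, summed over 5 genes, were at 8851 to 15786 in R+, 4870 to 8845 in C+, 45254 to 59260 in R- and 40629 to 44965 in C-, and 4 of the 5 were lower in each positive population. Neural progenitor markers, summed over 9 genes, were at 18968 to 21176 in R+, 19729 to 26487 in C+, 47655 to 57207 in R- and 49586 to 50212 in C-. Of 5 markers of platelets, which carry serotonin in blood, 3 passed the filter. Pf4, the platelet chemokine, was higher in R+ than in R- (1.09, adjusted p = 0.00398), with means of 520.0 in R+, 362 in C+, 243 in R- and 377 in C-. The other 2, Itga2b (-0.02, 0.987) and Gp1bb (0.54, 0.307), were not called there, and none of the 3 was called in C+ against C-.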
